A study of Homo sapiens with 30 samples.

Results

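Metallothioneins are small cysteine-rich proteins that bind zinc, copper and cadmium and buffer these metals in the cell. Their genes lie in a cluster on the long arm of chromosome 16, and many of them are switched on when the transcription factor MTF1 senses zinc and binds metal response elements in their promoters. The 8 genes described here are MT1E, MT1F, MT1G, MT1H, MT1M, MT1X, MT2A and MT3, taken by symbol from count tables of 27630 genes. They were chosen with results of these libraries known: the family was selected on the low read counts of MT1X and MT2A at the lamina against the cytosol, with no threshold, so those differences are given as a description without a test. All 8 were in the tables, 4 had a read in any library, and 3 (MT1X, MT2A and MT1F) had enough reads to be tested.

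The RNA came from HEK293FT cells, a line of embryonic kidney origin, as 4 pairs of libraries: a nuclear fraction, a cytosolic fraction, and RNA labelled near the nuclear lamina in native cells or after fixation with paraformaldehyde (PFA). Cells of all 4 groups were asynchronous and had been transfected by Lipofectamine 2000 with lamin B1 fused to APEX2, a peroxidase that tags molecules close to it, so every group carries the fusion. No group of untransfected or unlabelled cells was used here, so the fractions are the background. Libraries were depleted of ribosomal RNA, and the labels do not say whether replicates came from separate cultures, so p-values measure the spread between these libraries only. Lamina domains came from another line, the colorectal carcinoma line HCT116, as 1 list for each of G1, S and G2.

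Total counts ran from 2321291 to 8557777, and PFA lamina replicate 2 was the shallowest library. A count of 3, taken as the floor, equals 0.351 to 1.29 CPM, counts scaled to a library of 1000000. LMNB1, the gene of the fusion, had 3231 to 6382 normalised CPM in the fraction libraries and 26170 to 96240 at the lamina. MALAT1, a nuclear RNA, had a log2 fold change of 3.96 between nucleus and cytosol (adjusted p 0.00134, edgeR), and GAPDH, a cytosolic mRNA, -2.81 (adjusted p 0.00204, edgeR). The HEK293 markers PAX2, EYA1, LHX1, NEFL and NEFM had reads, although PAX2 was at 0 in cytosolic replicate 2. Of the K562 markers HBG1 and HBG2 were at 0 throughout, HBZ reached 0.423 and GATA1 1.84 normalised CPM. Of the HCT116 markers CDX1 reached 0.172, KRT20 0.344, LGALS4 1.55 and EPCAM 2.96, while CDX2 ran from 9.34 to 48.4. The blood marker PTPRC was at 0, and the liver marker ALB reached 1.47.

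The cluster holds 15 metallothionein symbols in the tables, over 119.1 kb of hg19 chromosome 16 from 56598961 to 56718108. No exon base of these 15 was shared with another annotated gene. Only 4 of the 15 had a read: MT1X with 439, MT2A with 429, MT1F with 48 and MT3 with 3, summed over 8 libraries. MT1E, MT1G, MT1H and MT1M were at 0 in all 8 libraries, as were the 7 other symbols MT1A, MT1B, MT1L, MT1JP, MT1DP, MT1IP and MT4. A count of 0 allows up to 3 reads in a library, so levels under 0.351 to 1.29 CPM could not be seen. MT1 genes are close copies of each other, and the recorded counting command has no option for reads that map to several places. Whether such reads were lost from MT1X, MT1F or the genes at 0 was not tested.

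**Figure D1:**
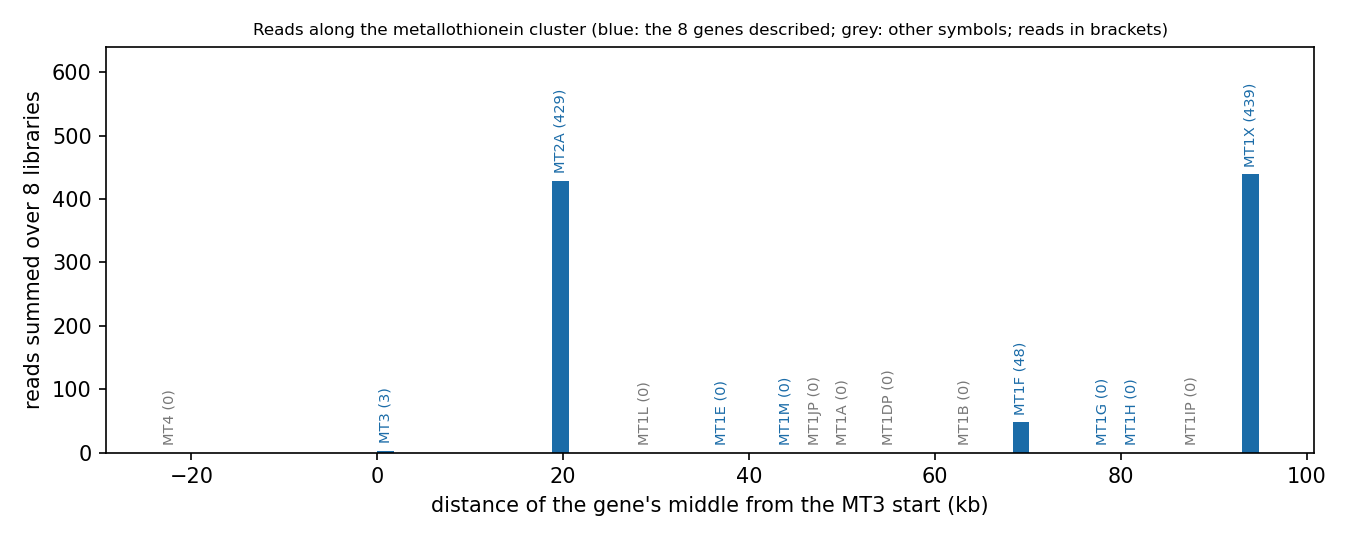
Reads summed over 8 libraries (vertical axis) for each metallothionein symbol of the cluster, placed by the distance of its middle from the start of MT3 in kb (horizontal axis). MT2A and MT1X stand near opposite sides of the cluster with 429 and 439 reads, MT1F has 48, MT3 has 3, and the other 11 symbols have 0.

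The promoter sequences of MT2A, MT1X and MT1H are shown because RefSeq sequences (GRCh38.p14) were matched for only these 3 of the 8 genes. The first 2 had nearly all reads of the family. MT1H had none, as did MT1E, MT1G and MT1M, whose promoters were not matched. Each line gives the 250 bases before the annotated start, 5′ to 3′, on the plus strand. Capitals mark the core letters of the metal response element, TGCACNC or TGCGCNC on either strand. The intervals are chr16:56608334-56608583 for MT2A, chr16:56682220-56682469 for MT1X and chr16:56669564-56669813 for MT1H.
MT2A: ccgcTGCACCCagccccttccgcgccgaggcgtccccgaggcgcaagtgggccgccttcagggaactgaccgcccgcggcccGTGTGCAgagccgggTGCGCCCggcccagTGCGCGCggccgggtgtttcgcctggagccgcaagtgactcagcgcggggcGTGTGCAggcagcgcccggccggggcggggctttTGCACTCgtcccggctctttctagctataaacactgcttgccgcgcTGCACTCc
MT1X: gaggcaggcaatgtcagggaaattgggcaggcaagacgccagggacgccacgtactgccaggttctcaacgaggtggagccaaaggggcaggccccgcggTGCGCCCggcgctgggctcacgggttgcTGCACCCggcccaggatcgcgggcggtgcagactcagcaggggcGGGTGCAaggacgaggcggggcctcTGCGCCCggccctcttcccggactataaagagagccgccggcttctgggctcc
MT1H: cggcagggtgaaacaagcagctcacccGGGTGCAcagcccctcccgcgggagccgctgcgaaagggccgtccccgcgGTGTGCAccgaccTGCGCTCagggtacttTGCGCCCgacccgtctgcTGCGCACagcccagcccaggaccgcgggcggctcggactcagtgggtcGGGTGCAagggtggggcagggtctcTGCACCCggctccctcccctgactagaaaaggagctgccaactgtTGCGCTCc

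MT2A held 7 such cores, MT1X 4 and MT1H 8. Of 35116 RefSeq promoters of the same length, 24.8% held at least 1 core, 0.37% at least 4, 0.0313% at least 7 and 0.0171% at least 8. Both MT1X and MT1H had a core at 78 to 72 and another at 53 to 47 bases before the start, and both MT2A and MT1H had one at 8 to 2 bases. The letters TATAAA, searched on both strands, were found 29 to 24 bases before the start of MT2A and 30 to 25 bases before that of MT1X. They were not in this window of MT1H, and 10.7% of all promoters held them. None of the cores overlapped TATAAA. These matches describe letters only, and MT1H with 8 cores had no read in any library.

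MT1X encodes a metallothionein of the class found in most tissues. Nuclear replicates 1 and 2 held 17 and 40 reads of it, cytosolic replicates 184 and 144, native lamina replicates 14 and 13, and PFA lamina replicates 23 and 4. Its normalised CPM, counts scaled to library size with TMM factors, was 2.65 and 6.87 in nuclear and 24.6 and 30.45 in cytosolic replicates. At the lamina it was 1.455 and 1.92 in native and 4.25 and 1.47 in PFA libraries. Both cytosolic libraries stood above all 6 others, and the PFA libraries overlapped both the nuclear and the native range.

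MT2A encodes the other widely expressed form, usually the most abundant metallothionein of human cells. Nuclear replicates held 15 and 24 reads of it, cytosolic replicates 189 and 102, native lamina replicates 25 and 18, and PFA lamina replicates 45 and 11. Its normalised CPM was 2.33 and 4.12 in nuclear, 25.3 and 21.6 in cytosolic, 2.599 and 2.65 in native lamina and 8.315 and 4.05 in PFA lamina replicates. Again both cytosolic libraries lay above all others, and both native values lay between the nuclear values.

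MT1F, a further widely expressed copy, was rare. Nuclear replicates held 3 and 2 reads of it, cytosolic replicates 17 and 7, native lamina replicates 5 and 4, and PFA lamina replicates 10 and 0. Its normalised CPM was 0.467 and 0.344 in nuclear, 2.27 and 1.48 in cytosolic, 0.5197 and 0.589 in native lamina and 1.85 and 0 in PFA lamina replicates. The nuclear libraries were at or under the floor of 3 reads, and the PFA libraries ran from 0 to a value between those of the cytosolic libraries. MT3, the form known from brain, had 1 read in native lamina replicate 1 and 2 reads in PFA lamina replicate 2, which is under the floor and gives no fold change. MT1F passed the filter on low counts, through the libraries with most reads of it, cytosolic replicate 1 with 17 and PFA replicate 1 with 10. Its comparisons that use these libraries are not independent of the filter. The 5 genes that did not pass, MT3 and the 4 at 0, have no test.

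**Figure D2:**
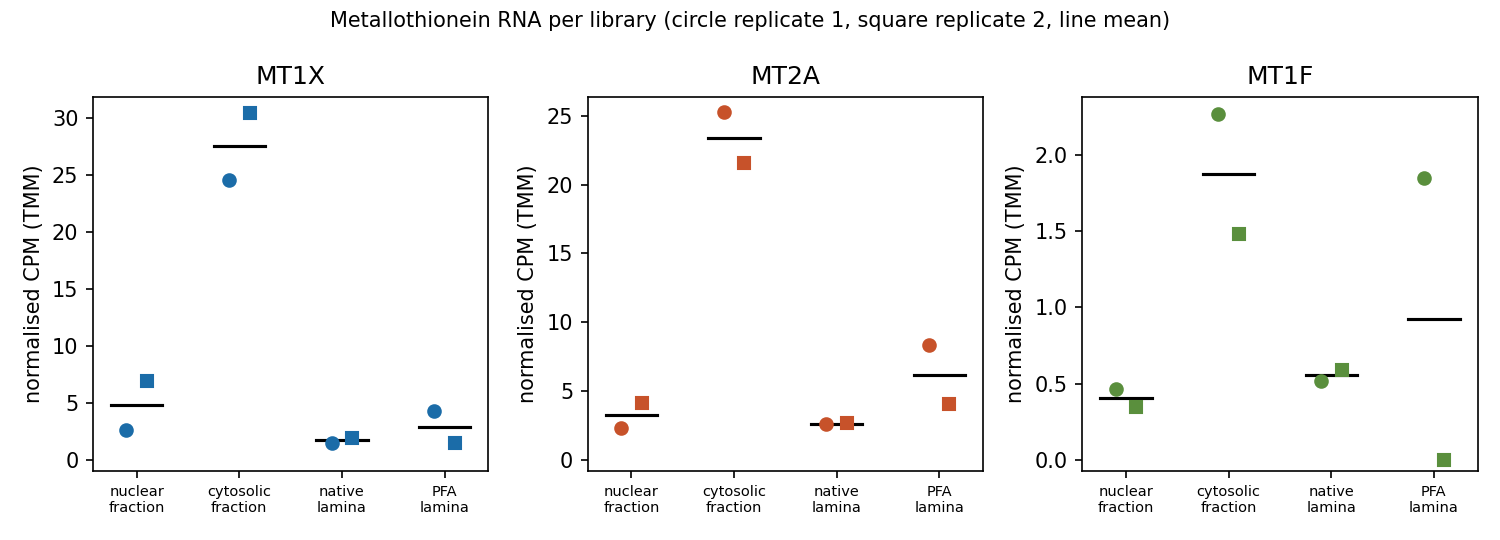
Normalised CPM (vertical axis, linear, a scale of its own per gene) of MT1X, MT2A and MT1F in the 4 groups, with a circle for replicate 1, a square for replicate 2 and a line for the mean. MT1X and MT2A lie above 20 normalised CPM in both cytosolic libraries and under 10 in the other 6, while PFA lamina replicate 2 has no read of MT1F.

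Values per kb of exon allow for the length of a gene when genes are compared, but not for reads lost between close copies. On this scale MT1X and MT2A were close in the cytosolic fraction, at 68.1 ± 10.2 and 55.9 ± 6.25 normalised CPM per kb (SD, n = 2). MT1F was at 3.885 ± 1.16 there. In the nuclear fraction the levels were 11.8 ± 7.40 for MT1X, 7.71 ± 3.02 for MT2A and 0.839 ± 0.18 for MT1F. At the native lamina MT2A stood above MT1X, at 6.27 ± 0.0905 against 4.17 ± 0.806, and at the PFA lamina at 14.75 ± 7.20 against 7.08 ± 4.86. In each PFA library MT2A lay above MT1X, at 19.85 against 10.5 in replicate 1 and 9.66 against 3.64 in replicate 2.

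Summed over the 8 genes, which is less touched by reads moving between close copies, metallothioneins took few reads. Reads left uncounted because they map to several places would be missing from the sum as well. As CPM of total counts, the sum was 5.37 (95% Wilson interval 3.86 to 7.47) and 9.84 (7.73 to 12.5) for the nuclear replicates, and 53.6 (48.5 to 59.2) and 43.6 (38.5 to 49.3) for the cytosolic replicates. It was 5.26 (3.93 to 7.04) and 5.84 (4.2 to 8.12) for native lamina replicates, and 13.3 (10.7 to 16.6) and 7.32 (4.57 to 11.7) for PFA lamina replicates. The cytosolic intervals were apart from all others, and the PFA and nuclear libraries overlapped. These intervals cover counting error only, because PCR copies of a molecule could not be told from separate molecules.

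The fractions were compared to ask in which of them the RNA took a larger share of reads. MT1X and MT2A took a smaller share in the nucleus than in the cytosol, and both cytosolic libraries lay above both nuclear ones. Normalised CPM is relative to each library, so amounts of RNA per compartment were not compared. MT1X went from 27.5 ± 4.14 normalised CPM in the cytosol to 4.76 ± 2.99 in the nucleus (SD, n = 2), a log2 change of -2.53 (SE 0.52, adjusted p 0.00247, edgeR). Without nuclear replicate 2 the value was -3.39. MT2A went from 23.4 ± 2.62 to 3.23 ± 1.26, a log2 change of -2.86 (SE 0.48, adjusted p 9.95e-04, edgeR). MT1F had -2.17 (SE 1.08, adjusted p 0.114, edgeR) and was not called. So 2 of the 3 tested genes, of 8 in all, were called lower, where 21.2% of 16504 genes tested were lower and 26.1% higher. Over all genes tested the median was 0.13, and in the other 5 comparisons it lay between -0.07 and 0.1. This comparison uses the cytosolic libraries whose high values helped to choose MT1X and MT2A, and is not independent of that choice.

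Nuclear replicate 2 had more MT1X and MT2A than nuclear replicate 1. GAPDH moved the same way, with 257.3 normalised CPM in replicate 1 and 728.6 in replicate 2, while ACTB, another cytosolic mRNA, had 389.7 and 369.6. The part of cytosolic RNA in these values was not tested. In bulk libraries, fewer cells with a transcript and less of it in each cell cannot be told apart.

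The lamina was compared with the nuclear fraction to ask whether the RNA was labelled beyond its presence in the nucleus. Low values in the lamina libraries helped to choose MT1X and MT2A, so comparisons that use these libraries are not independent of that choice. At the native lamina none of the 3 tested genes was called by edgeR, 1 (MT1X) had an unadjusted p under 0.05, and DESeq2 called 0. Among all genes, 3.87% were called higher and 3.44% lower in this comparison. MT1X had a log2 change of -1.49 (SE 0.57, adjusted p 0.110, edgeR), with means of 4.76 ± 2.99 in the nucleus and 1.685 ± 0.326 there (SD, n = 2). It was -2.03 without nuclear replicate 1 and -0.64 without nuclear replicate 2. MT2A had -0.29 (SE 0.50, adjusted p 0.737, edgeR) with TMM factors and 0.01 with total counts, and MT1F 0.42 (SE 1.18, adjusted p 0.846, edgeR). ACTB had 1144 and 980.2 normalised CPM in the native libraries, above both nuclear ones. GAPDH had 650.8 and 782.9 in the native libraries against 257.3 and 728.6 in the nuclear ones, so its ranges overlapped. MT1X was lower in both native libraries than in both nuclear ones.

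At the PFA lamina again 0 of 3 were called by edgeR against the nuclear fraction, 0 had an unadjusted p under 0.05, and DESeq2 called 0. The background was 9.63% higher and 7.81% lower. The same limit from the choice of the genes applies here. MT2A had a log2 change of 0.99 (SE 0.49, adjusted p 0.170, edgeR) and MT1X -0.61 (SE 0.58, adjusted p 0.473, edgeR). MT1F had 1.38 (SE 1.17, adjusted p 0.424, edgeR). Without PFA replicate 2 the MT2A value was 1.38, and without PFA replicate 1 it was 0.34. A group left with 1 library was assumed to vary like the other groups. For MT1X the values with a library left out ran from -1.66 to 0.23. PFA replicate 1 was the library with more MT2A, and it also had less MALAT1 than replicate 2, at 595.4 against 3079 normalised CPM, and more GAPDH, at 1021 against 556.6. The part of cytosolic RNA in the PFA libraries was not tested.

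**Figure D3:**
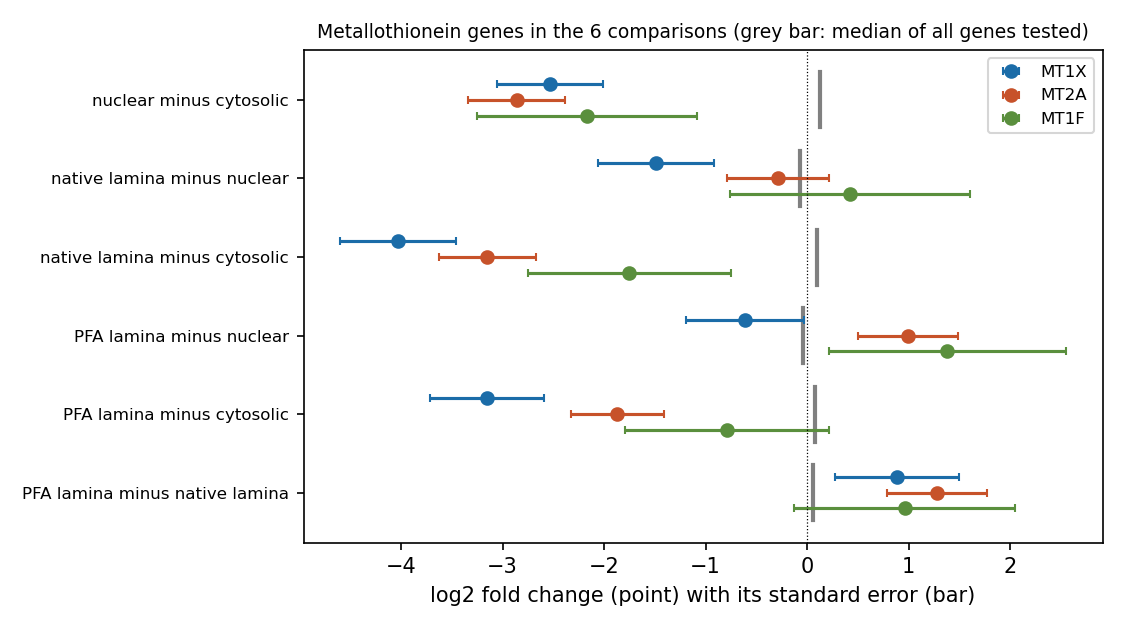
Log2 fold change (horizontal axis) of MT1X, MT2A and MT1F in the 6 comparisons (rows), with bars of 1 standard error and a grey line at the median of all 16504 genes tested. MT1X and MT2A lie left of -1.8 in the 3 comparisons with the cytosolic fraction, and the values against the nuclear fraction lie between -1.49 and 1.38.

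Against the cytosolic fraction, the contrasts that chose the genes, the values were as follows. At the native lamina MT1X had a log2 change of -4.03 (SE 0.57), a 16.3-fold lower level, MT2A had -3.15 (SE 0.48), 8.87-fold lower, and MT1F -1.75 (SE 1.00). At the PFA lamina MT1X had -3.15 (SE 0.56), MT2A -1.87 (SE 0.46) and MT1F -0.79 (SE 1.00). Because MT1X and MT2A were selected on these contrasts, the number past the threshold is given only for completeness and nothing is read from it. It was 2 of 3 genes at the native lamina, where 6.77% of all genes were lower and 6.99% higher, and 1 of 3 at the PFA lamina, where 0.145% were lower and 0.527% higher. The number at the PFA lamina was 0 without either cytosolic library, where 0 of 17335 and 0 of 17497 genes were called, and 0 without PFA replicate 2, where 4 of 17240 genes were called lower. It was 2 without PFA replicate 1, where 1166 of 17478 genes were called lower. The log2 change of MT1X was -3.31 without cytosolic replicate 1, -3.01 without cytosolic replicate 2 and -2.69 without PFA replicate 2. For MT1X the PFA value was -4.26 without PFA replicate 1, and for MT2A it was -2.58. MT1F without that library rests on a count of 0 and has no exact size.

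The comparisons above share the nuclear or the cytosolic libraries, so they are not independent of each other. Fixation was examined by setting the PFA against the native lamina. Both are lamina groups whose low values helped to choose MT1X and MT2A. None of the 3 genes was called by edgeR, 1 (MT2A) had an unadjusted p under 0.05, and DESeq2 called 0, giving no adjusted p for any of the 3. Of all genes, 0% were called in either direction. MT2A had a log2 change of 1.28 (SE 0.49, adjusted p 0.391, edgeR), with both PFA libraries above both native ones, and 0.6 without PFA replicate 1. MT1X had 0.88 (SE 0.61, adjusted p 0.617, edgeR) and -0.19 without PFA replicate 1. MT1F had 0.96 (SE 1.09, adjusted p 0.772, edgeR).

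In order of mean level, MT1X was highest in the cytosolic fraction, followed by the nuclear fraction, the PFA lamina and the native lamina. MT2A was also highest in the cytosolic fraction, followed by the PFA lamina, the nuclear fraction and the native lamina. For both genes the last 3 groups were not separated by any called difference in the fit of all 8 libraries.

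The balance of the 2 main genes differed between libraries, a pattern chosen after the values were seen and given without a test. Of the reads of MT1X and MT2A together, MT1X had 53.1% (exact 95% binomial interval 34.7 to 70.9) and 62.5% (49.5 to 74.3) in nuclear replicates. It had 49.3% (44.1 to 54.5) and 58.5% (52.1 to 64.8) in cytosolic replicates. At the lamina it had 35.9% (21.2 to 52.8) and 41.9% (24.5 to 60.9) in native, and 33.8% (22.8 to 46.3) and 26.7% (7.79 to 55.1) in PFA libraries. The 4 lamina libraries all lay below the 4 fraction libraries, but most intervals overlapped, because the lamina libraries held only 15 to 68 reads of both genes. The share within a library does not depend on its scaling.

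**Figure D4:**
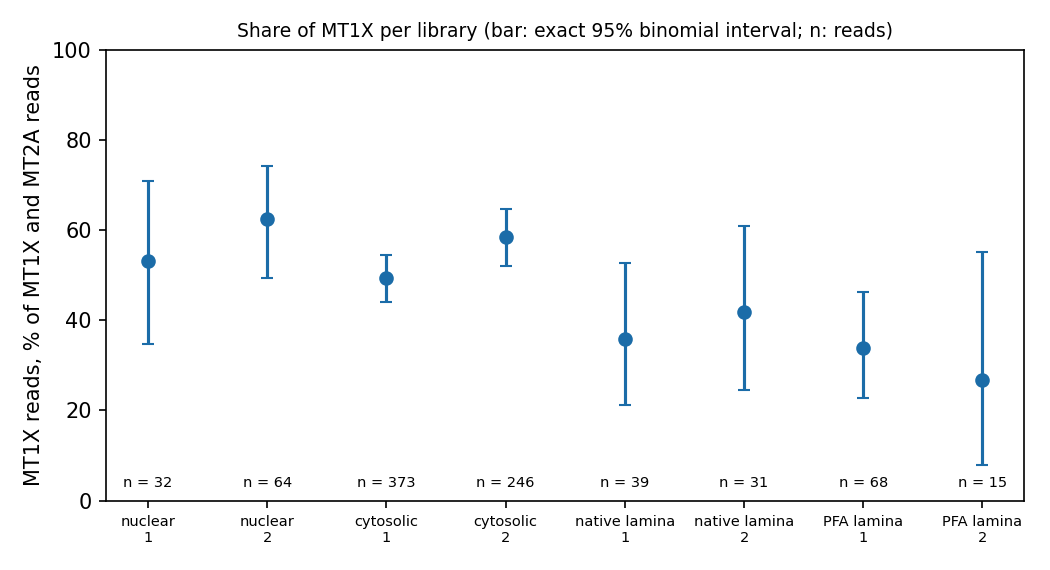
MT1X reads as a percentage of MT1X and MT2A reads (vertical axis) in each of the 8 libraries, with exact 95% binomial intervals and the number of reads printed. The fraction libraries lie between 49.3% and 62.5% and the lamina libraries between 26.7% and 41.9%, with wide intervals.

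MTF1, the zinc sensor that drives metallothionein transcription, had 50.2 ± 6.28 normalised CPM in the nuclear, 37.0 ± 10.2 in the cytosolic, 56.95 ± 6.15 in the native and 53.6 ± 6.86 in the PFA group (SD, n = 2). It was called in 0 of the 6 comparisons, with a log2 change of 0.44 (SE 0.29, adjusted p 0.220, edgeR) between nucleus and cytosol. SLC30A1, a zinc exporter of the plasma membrane that MTF1 also controls, had 0.46 (SE 0.35, adjusted p 0.299, edgeR) there. At the native lamina SLC30A1 exceeded the cytosol, with 1.17 (SE 0.35, adjusted p 0.0421, edgeR). It was the only 1 of 8 tested zinc exporters called there, where 6.99% of all genes were higher and 6.77% lower. Its sign was opposite to that of MT1X and MT2A, which were chosen on this contrast.

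Of 10 zinc exporters of the SLC30 family 8 were tested, and in the nucleus against the cytosol 1 was higher and 1 lower, with a median of 0.55. SLC30A6 had a log2 change of 1.06 (SE 0.31, adjusted p 0.0134, edgeR) and SLC30A9 -1.21 (SE 0.34, adjusted p 0.0109, edgeR). Of 14 zinc importers of the SLC39 family 12 were tested, 2 were higher and 0 lower, and the median was 0.35. SLC39A10 had 1.09 (SE 0.39, adjusted p 0.0349, edgeR) and SLC39A5 3.51 (SE 0.80, adjusted p 0.00382, edgeR), although SLC39A5 shares exon bases with ANKRD52 and strand was ignored. The background was 26.1% of all genes higher and 21.2% lower. At the native lamina against the nucleus 0 transporters of either family were called, with medians of 0 and -0.28, where 3.87% of all genes were higher and 3.44% lower. In the PFA libraries against the nucleus SLC30A9 was higher, with 1.27 (SE 0.34, adjusted p 0.0256, edgeR). SLC39A5 was lower there, with -2.6 (SE 0.79, adjusted p 0.0386, edgeR). Of all genes, 9.63% were higher and 7.81% lower in this comparison. Both SLC39A5 changes rest on few reads, with 5 and 4 in the cytosolic and 2 and 8 in the PFA libraries. PFA replicate 1 was under the floor of 3 reads for it.

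All 14 copper handling genes were tested, and 3 were higher and 6 lower in the nuclear fraction, with a median log2 fold change of -0.67, where 26.1% of all genes were higher and 21.2% lower. ATP7B, a copper-exporting ATPase, had 1.81 (SE 0.31, adjusted p 0.00106, edgeR) and SLC31A2, a copper transporter, 1.10 (SE 0.40, adjusted p 0.0383, edgeR). SOD1, the copper and zinc superoxide dismutase, had -2.15 (SE 0.33, adjusted p 7.76e-04, edgeR) and COX17, a copper chaperone of mitochondria, -1.97 (SE 0.48, adjusted p 0.00567, edgeR). Against the nucleus, 0 of the 14 were higher and 1 was lower at the native lamina, where 3.87% of all genes were higher and 3.44% lower. For the PFA lamina 1 was higher and 1 lower, where 9.63% of all genes were higher and 7.81% lower. SOD1 was the higher one, with 1.12 (SE 0.32, adjusted p 0.0320, edgeR), with 52.9 ± 11.0 in the nucleus and 114.2 ± 37.7 normalised CPM there (SD, n = 2).

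Within 500 kb of the cluster on chromosome 16 lay 17 other genes, of which 10 were tested. Between nucleus and cytosol 0 were higher and 5 lower in the nucleus, with a median of -0.72, where 26.1% of all genes were higher and 21.2% lower. NUDT21, a subunit of the cleavage factor that sets polyadenylation sites (hg19 chromosome 16, 56463048 to 56485261), had -2.09 (SE 0.33, adjusted p 8.01e-04, edgeR). GNAO1, a G protein subunit, had -1.22 (SE 0.37, adjusted p 0.0158, edgeR). At the native lamina NUDT21 was higher than in the nuclear fraction, with 1.5 (SE 0.32, adjusted p 0.0220, edgeR). At the PFA lamina it had 1.3 (SE 0.32, adjusted p 0.0197, edgeR), and it was the only neighbour called against the nucleus in either preparation. All genes were called higher at 3.87% and lower at 3.44% in the native comparison, and at 9.63% and 7.81% in the PFA comparison.

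The genes whose pattern was most like the mean of MT1X and MT2A were sought among 12296 genes with at least 10 reads in every library and 300 exonic bases. Likeness was the root mean square difference of log2 CPM, centred per gene, over 8 libraries. The 6 nearest were TXN (thioredoxin) at 0.404, HSPE1 (a mitochondrial co-chaperonin) at 0.443, LAMTOR5 (a lysosomal scaffold subunit) at 0.455, TMSB10 (a thymosin that binds actin) at 0.469, S100A10 (a partner of annexin A2) at 0.49 and MIF (a cytokine) at 0.494. MT1X and MT2A differed from each other by 0.683. That is a distance between the genes and not from their mean profile, so it cannot be ranked with the 6 values above. Pearson's r with the mean profile was 0.936 to 0.977 over 8 libraries, as a description of points that share their group structure. TXN had means of 31.4 normalised CPM in the nuclear, 142.5 in the cytosolic, 19.9 in the native and 44.1 in the PFA group. HSPE1, LAMTOR5 and MIF share exon bases with other genes, so their counts are uncertain.

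**Figure D5:**
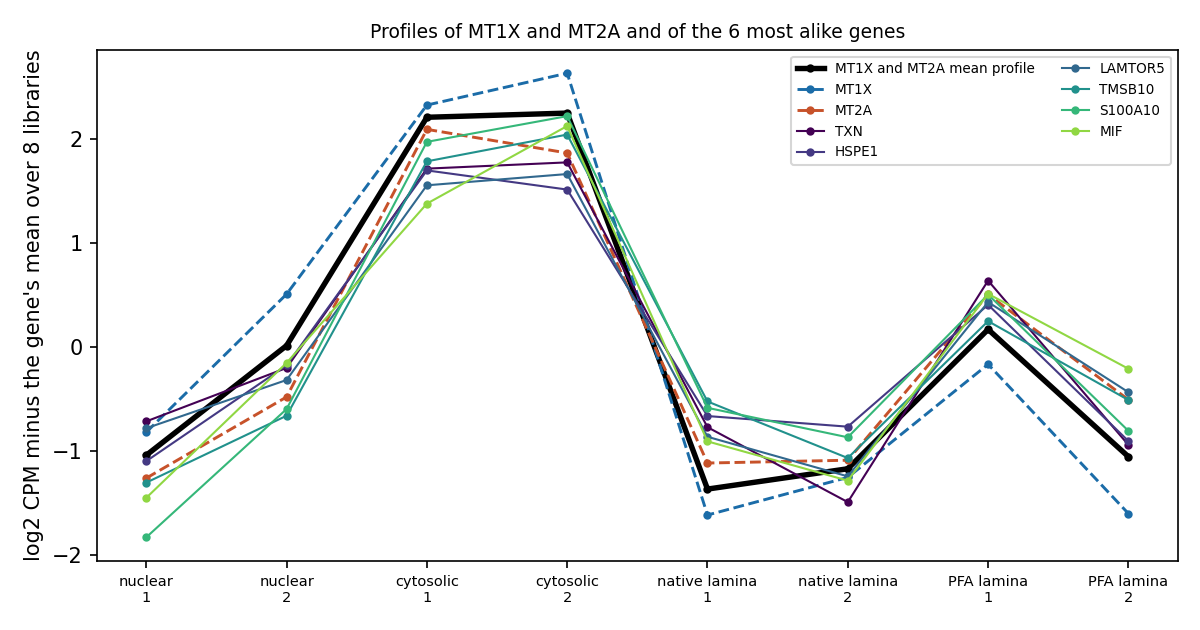
Log2 CPM minus the gene's own mean over 8 libraries (vertical axis) for MT1X, MT2A, their mean and the 6 most alike genes in each library (horizontal axis). All lines are highest in both cytosolic libraries, and PFA lamina replicate 1 lies above PFA lamina replicate 2 in each of them.

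The position of the cluster was set against the lamina domains of HCT116. In none of the 3 stages did a domain reach any of the 8 genes, which span 56623267 to 56718108 on hg19 chromosome 16. In G1 the nearest domain began 2.08 Mb downstream (58800001 to 66300000) and in S 2.18 Mb downstream (58900001 to 66000000). In G2 a domain of 55800001 to 56400000 ended 0.223 Mb upstream, and the downstream domain began at the same base as in G1. On the upstream side the nearest domain of G1 and S ended 3.82 Mb away. Each list is a consensus of replicates, without separate intervals per replicate and without scores. The RNA is from another cell line, so the G2 domain was not compared with the RNA values.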

How the data were processed

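The authors deposited raw read counts per gene symbol, made with featureCounts 1.5.2 on hg19 and the RefFlat annotation without regard to strand and with a read over several genes counted for each, per the file headers. The submitters' processing notes also list TopHat2 2.1.1 and Bowtie2 2.3.2. One cytosolic header (replicate 1) names another library as output but its own as input, and its label was followed. Of the domain lists, which the authors deposited without scores, only the intervals were used.

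Genes were filtered with filterByExpr (16504 kept) and tested in 1 fit of all 8 libraries by group, without a replicate block, with the quasi-likelihood test of edgeR 4.0.16 under R 4.3.3 and TMM factors. P-values were adjusted by Benjamini-Hochberg over all genes, with calls at 0.05, and SE is the log2 fold change divided by the root of F. The script was tested on simulated data. Alternatives for scaling were DESeq2 size factors, total counts and upper-quartile factors. Those for the filter were none, or 10 counts or more in each library. Those for the fit were a replicate block, DESeq2 1.42.0 (Wald test), only the 4 libraries compared, and each library left out. Named genes were the 8 members, MTF1, SLC30A1, LMNB1, MALAT1 and GAPDH, the 6 most alike genes, and per list the 2 largest changes each way among genes called between the fractions; others were named after their values were seen. Other metallothionein symbols were 10, of which 9 were in the tables (MTL5 as TESMIN) and MT1CP was not; of those off the cluster MT1HL1 had 1 read and TESMIN was called in 0 comparisons. The members and lists were chosen with earlier results of these data known. K562 samples, whose titles and material labels disagree, were not used here.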

Additional observations from a re-analysis of the deposited data

How the results depend on the processing

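MT1X and MT2A kept their direction and their call between nucleus and cytosol in every alternative that tested them. High values in the cytosolic libraries helped to choose both genes, so refits of the same libraries give no independent support. With at least 10 counts in every library MT1X and MT1F were not tested. The number past the threshold then went from 2 to 1 between nucleus and cytosol. It also went from 2 to 1 at the native lamina against the cytosol, a contrast that chose the genes. The count at the PFA lamina against the cytosol was the least stable: 1 at first, 2 without a filter, 2 with the replicate block, 2 with DESeq2, and 0 to 2 with a library left out. At the PFA lamina against the nucleus the log2 change of MT2A ran from 0.34 to 1.46 with a library left out. The replicate numbers are not shown to pair libraries (correlations of same-numbered deviations from -0.0879 to 0.3), and the block changed no other count.

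The log2 ratio of the summed counts was -2.65 between nucleus and cytosol (-3.28 to -2.22 with a library left out), and -0.77 at the native lamina against the nucleus (-1.21 to -0.15). Against the cytosol the native lamina had -3.43 (-3.5 to -3.36), -3.13 as a share of total counts and -3.3 with upper-quartile factors. The PFA lamina had 0.3 against the nucleus (-0.42 to 0.92, negative at -0.13 without nuclear replicate 1 and at -0.42 without PFA replicate 1), -2.35 against the cytosol (-3.08 to -1.87) and 1.07 against the native lamina (0.35 to 1.55).

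Of 191 values of single genes under an alternative, 176 kept direction and call, 6 gained a call, 3 lost it and 6 changed sign. None of those 6 was a call. They were MT2A at the native lamina against the nucleus (0.01 with total counts, -0.65 to 0.18 with a library left out), MT1X at the PFA lamina against the nucleus (-1.66 to 0.23, positive without nuclear replicate 2). The others were without PFA replicate 1: MT1X against the native lamina (-0.19 to 1.34), and MT1F against the nucleus (-4.38 to 2.15) and the native lamina (-4.83 to 1.71). Both low MT1F values rest on a count of 0 and are not exact. Total counts moved the median of all genes by 0.28 at the native lamina against the nucleus. The share of all genes called also moved, for example from 21.2% lower in the nucleus than in the cytosol to between 9.72% and 26.1%, and from 0.145% lower at the PFA lamina than in the cytosol to between 0% and 6.67%. Measured from all metallothionein symbols, the gap to the G2 domain was 0.199 Mb. Lamina libraries held 4 to 23 reads of MT1X and 11 to 45 of MT2A, which limits every comparison with the lamina.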
